A study of Rattus norvegicus with 6 samples.

Results

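Whole-lung RNA-seq was read for the 7 genes of the blood-vessel VEGF system, of 23802 genes in the deposited table. These were the ligand genes Vegfa, Vegfb and Pgf, the receptor genes Kdr and Flt1, and the neuropilin co-receptor genes Nrp1 and Nrp2. Each was taken by its symbol, and each symbol had 1 row. The lungs came from male wild-type Sprague-Dawley rats of 200 to 250 g. In 3 samples the rats had received monocrotaline (MCT), a plant alkaloid that injures lung vessels and is used to model pulmonary arterial hypertension, as 1 dose of 60 mg/kg, and lung was collected at 4 weeks. The other 3 samples came from controls given saline. The labels disagree on whether MCT went under the skin or into the peritoneum, and they do not say whether each sample is 1 animal. Summed counts ran from 13525912 to 17916134 per sample, and all 7 genes passed the filter on low counts.

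VEGF-A is the main growth and survival factor of blood-vessel endothelium and signals through the tyrosine kinase receptor VEGFR2, the product of Kdr. VEGFR1, the product of Flt1, binds VEGF-A more tightly but signals weakly, so that it holds ligand away from VEGFR2; VEGF-B and placental growth factor (the product of Pgf) bind VEGFR1 and not VEGFR2. Neuropilins bind VEGF isoforms that carry the heparin-binding tail and hand them to the receptors. In the adult lung, alveolar type 1 cells are a known source of VEGF-A for the capillaries beside them. In whole tissue, fewer cells of a type and less RNA per cell cannot be told apart.

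The promoters of the ligand gene that rose, of the most abundant ligand gene and of the receptor gene that fell are shown because the family members moved in different directions. The sequences are from RefSeq, build GRCr8, whereas the counts were made on Rnor_6.0. All 7 genes matched a promoter window, and Vegfa matched 2. The second window of Vegfa (chr9:22460028-22460277, plus strand) lies wholly inside the annotated gene, held none of the motifs named below and is not shown. For Pgf (chr6:110557748-110557997, minus strand) and Vegfa (chr9:22452604-22452853, plus strand) the 250 bases before the transcript start are given. For Flt1 only 2 stretches of 30 bases are given (chr12:12333295-12333324 and chr12:12333343-12333372, plus strand), since a longer annotated transcript covers the whole window. Capitals mark, on either strand, the hypoxia response cores ACGTG and GCGTG, the GC box GGGCGG, the TATA box TATAAA and the cAMP response element TGACGTCA.
Pgf: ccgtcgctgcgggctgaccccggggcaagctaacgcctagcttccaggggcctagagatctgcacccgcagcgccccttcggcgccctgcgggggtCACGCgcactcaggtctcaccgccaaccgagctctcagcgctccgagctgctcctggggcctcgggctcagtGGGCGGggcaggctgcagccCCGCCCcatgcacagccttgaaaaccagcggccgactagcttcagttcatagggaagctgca
Vegfa: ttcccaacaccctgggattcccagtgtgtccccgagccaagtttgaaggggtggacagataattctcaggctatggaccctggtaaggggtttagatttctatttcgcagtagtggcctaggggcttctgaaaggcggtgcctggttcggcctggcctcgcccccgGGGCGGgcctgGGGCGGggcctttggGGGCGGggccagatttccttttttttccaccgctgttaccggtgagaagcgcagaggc
Flt1, cAMP response element: gggggacccctTGACGTCActagaaggagg
Flt1, TATA box and a GC box: gctggggaaggtTATAAAtcgcccCCGCCC

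The Vegfa window shown held 3 GC boxes and no hypoxia core, and the known hypoxia response element of Vegfa lies further upstream than these bases. The Pgf window held 2 GC boxes and 1 GCGTG core, read on the opposite strand. The Flt1 window held 1 TATA box and 1 cAMP response element, beginning 75 and 124 bases before the start, besides 3 GC boxes and 1 GCGTG core. No marked motifs overlapped each other. Of 33469 RefSeq windows of 250 bases, 16.6% held ACGTG, 25.9% GCGTG, 30.5% GGGCGG, 12.9% TATAAA and 1.59% TGACGTCA. These matches describe letters only.

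In MCT lungs the ligand gene Pgf rose 3.03-fold and the receptor gene Flt1 fell 1.75-fold. Vegfa, Kdr and Nrp1 had lower means in MCT lungs but did not pass the test, with 1 MCT sample close to the controls in each. Vegfb and Nrp2 had log2 fold changes within 0.1 of 0. By edgeR's quasi-likelihood test with Benjamini-Hochberg adjustment over all 15250 tested genes, 1 of 7 members was thus higher, where 8.01% of all tested genes were, and 1 was lower, where 5.11% were (2 of 7 in either direction, against 13.1%). Without MCT replicate 2 the number lower was 4, and without control replicate 1, control replicate 2, MCT replicate 1 or MCT replicate 3 it was 0. Without control replicate 2 or 3 the number higher was 0. MCT samples lay wholly above controls for 1 of 7 members (Pgf), against 18.4% of tested genes, and wholly below for 3 (Vegfa, Flt1 and Nrp1), against 17%. Either way this was 4 of 7, against 35.4%. The median log2 fold change of all tested genes was -0.01. Levels below are TMM-normalized CPM (a gene's count scaled to the library's depth), which compare 1 gene between samples, unless FPKM, which also divides by transcript length, is named.

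**Figure D1:**
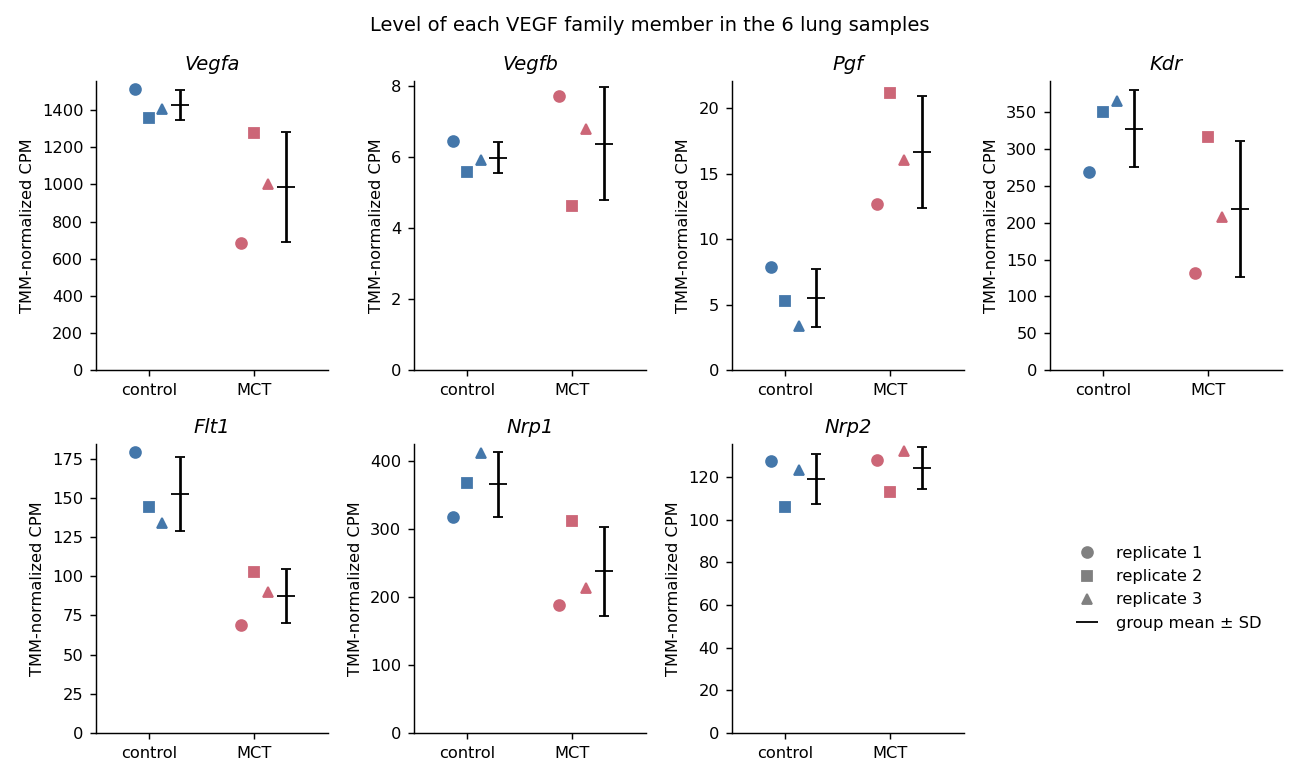
TMM-normalized CPM of each gene (vertical axes, from 0) in the 3 control and 3 MCT samples, with the group mean and SD. Pgf lies between 12.7 and 21.2 CPM in MCT samples and at most at 7.85 in controls, while MCT replicate 2 stands closest to the controls for Vegfa, Kdr, Flt1 and Nrp1.

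Pgf (ENSRNOG00000005650), the gene of placental growth factor, is a VEGFR1 ligand of low level in healthy adult tissue. Control replicates 1 to 3 gave 7.85, 5.29 and 3.40 CPM, against 12.7, 21.2 and 16.0 CPM for MCT replicates 1 to 3. Every MCT sample lay above every control, and the controls differed by more than 2-fold among themselves. The group levels were 5.51 ± 2.24 and 16.6 ± 4.27 CPM (SD, n = 3), with a log2 fold change of 1.60 (SE 0.32, adjusted p = 0.0162, edgeR). These values rest on 63 to 118 counts per control and 187 to 357 per MCT sample. Leaving out control replicate 2 gave 1.58 and an adjusted p of 0.0659 (edgeR), and leaving out control replicate 3 gave 1.34 and 0.0506, so either removal ended the call.

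Vegfa (ENSRNOG00000019598) was the most abundant of the 7 by far. Its level was 1515, 1357 and 1408 CPM across the controls, against 682, 1277 and 1002 CPM across the MCT samples. All MCT samples were below all controls, but their spread was wide: the coefficient of variation was 30.2% in MCT samples and 5.67% in controls. The log2 fold change of -0.53 (SE 0.22) did not pass the test (adjusted p = 0.151, edgeR). Without MCT replicate 2 it was -0.76 and was called (adjusted p = 0.0427, edgeR).

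Vegfb (ENSRNOG00000021156), whose product acts through VEGFR1, was a minor transcript. It stood at 6.45, 5.59 and 5.93 CPM in controls and at 7.73, 4.62 and 6.79 CPM in MCT samples, so the MCT samples lay on both sides of the controls. The estimated change was 0.09 on the log2 scale (SE 0.25, edgeR adjusted p = 0.847), with a 95% interval from -0.48 to 0.66, on 75 to 114 counts per sample. That interval runs from 0.72-fold to 1.58-fold of the control level. Without MCT replicate 1 the sign turned, to -0.07 (adjusted p = 0.912, edgeR).

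Kdr (ENSRNOG00000046829), the main signalling receptor gene of blood-vessel endothelium, varied most among the MCT samples. Its level was 268, 350 and 365 CPM in controls and 132, 316 and 208 CPM in MCT samples. MCT replicate 2 lay above control replicate 1, so the groups overlapped. Its log2 change of -0.58 (SE 0.28) did not pass (edgeR adjusted p = 0.208). Without MCT replicate 2 it was -0.95 and called (adjusted p = 0.0307, edgeR), and without MCT replicate 1 it was -0.32 (adjusted p = 0.425).

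Flt1 (ENSRNOG00000000940), which gives both membrane VEGFR1 and a soluble form that traps ligand, fell. It stood at 179, 144 and 134 CPM in controls and at 68.6, 103 and 90.0 CPM in MCT samples. No MCT sample reached the lowest control. The levels were 153 ± 23.5 and 87.1 ± 17.2 CPM (SD, n = 3), with a log2 fold change of -0.81 (SE 0.18, adjusted p = 0.0211, edgeR). Over all 15 alternatives its value stayed between -0.94 and -0.66, but 4 of them ended the call. Taking out control replicate 1 gave -0.67 (edgeR adjusted p = 0.0576) and taking out control replicate 2 gave -0.84 (edgeR adjusted p = 0.0616). Taking out MCT replicate 1 gave -0.66 (edgeR adjusted p = 0.0509) and taking out MCT replicate 3 gave -0.83 (edgeR adjusted p = 0.0657). Gene-level counts do not part the membrane and soluble forms.

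Nrp1 (ENSRNOG00000010744), the co-receptor gene of arterial and capillary endothelium that is also expressed by other cells, had a pattern near that of Kdr. Its level was 317, 367 and 412 CPM in controls and 187, 312 and 213 CPM in MCT samples. All MCT samples were lower, MCT replicate 2 by a narrow margin. The log2 fold change of -0.62 (SE 0.20) did not pass in edgeR (adjusted p = 0.0793) and passed in DESeq2 (-0.62, adjusted p = 0.0238), where 6.75% of genes were called lower. Without MCT replicate 2 edgeR gave -0.87 (adjusted p = 0.0121).

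Nrp2 (ENSRNOG00000031232), the neuropilin gene of veins and lymphatic vessels, was the steadiest member. It stood at 128, 106 and 124 CPM in controls and at 128, 113 and 132 CPM in MCT samples, fully intermingled. The estimate was 0.06 on the log2 scale (SE 0.12, edgeR adjusted p = 0.781). With a 95% interval of -0.22 to 0.34, the estimate leaves room for 0.86-fold to 1.27-fold of the control level. Its sign turned without control replicate 2 (-0.01, adjusted p = 0.963, edgeR).

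**Figure D2:**
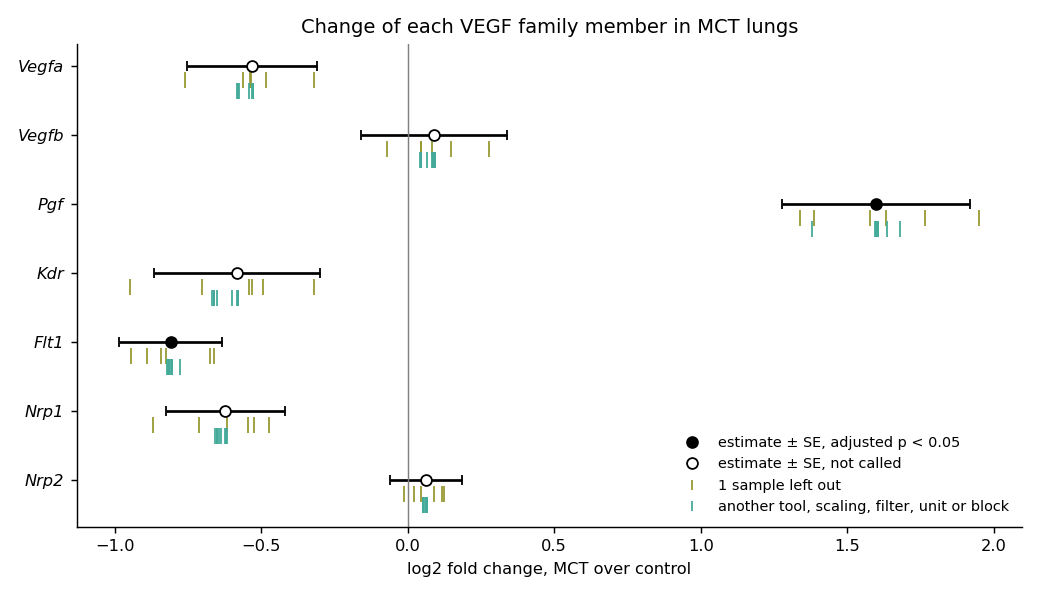
Log2 fold change of MCT over control (horizontal axis) for each gene, as the edgeR estimate with its SE and as the values with 1 sample left out or under another tool, scaling, filter, unit or replicate block. Pgf at 1.60 and Flt1 at -0.81 are called; leaving out samples spreads Kdr from -0.95 to -0.32.

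Per transcript length the pool of the ligand genes Vegfa, Vegfb and Pgf was almost all Vegfa. Its FPKM was 407 ± 20.6 in controls and 280.1 ± 81.8 in MCT lungs (SD, n = 3), above that of 98.9% and 98.1% of tested genes. Vegfa made up 98.0% to 98.6% of the summed FPKM of these ligand genes in controls and 94.0% to 95.8% in MCT samples. The share of Pgf was 0.535% to 1.14% in controls and 3.43% to 3.92% in MCT samples. Thus Pgf stayed a minor ligand transcript in every sample. The shares leave out Vegfc and Vegfd, the ligand genes of the lymphatic arm. Mean FPKM was 10.1 in controls and 13.1 in MCT lungs for Vegfc, and 4.51 and 14.3 for Vegfd.

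In FPKM, the control order was Vegfa, Nrp1 (66.7 ± 10.6), Kdr (55.0 ± 9.90), Flt1 (21.9 ± 2.86), Nrp2 (18.8 ± 1.94), Pgf (3.51 ± 1.35) and Vegfb (3.37 ± 0.219). Nrp1 and Kdr, Flt1 and Nrp2, and Pgf and Vegfb overlapped in range across samples, and the other neighbours did not. Within each control sample, however, Nrp1 was above Kdr. In MCT lungs Nrp2 (19.5 ± 1.68) stood above Flt1 (12.4 ± 2.35) with no overlap. Flt1 then overlapped in range with Pgf (10.6 ± 2.62). Within each MCT sample Flt1 was still the higher (9.90 against 8.17, 14.55 against 13.38 and 12.87 against 10.24 FPKM). Vegfb (3.56 ± 0.917) was lowest. Nrp1 (42.9 ± 11.5) overlapped again in range with Kdr, whose MCT values were 22.2, 52.1 and 34.6 FPKM, and was again above Kdr within each sample. Errors are SD with n = 3 throughout.

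**Figure D3:**
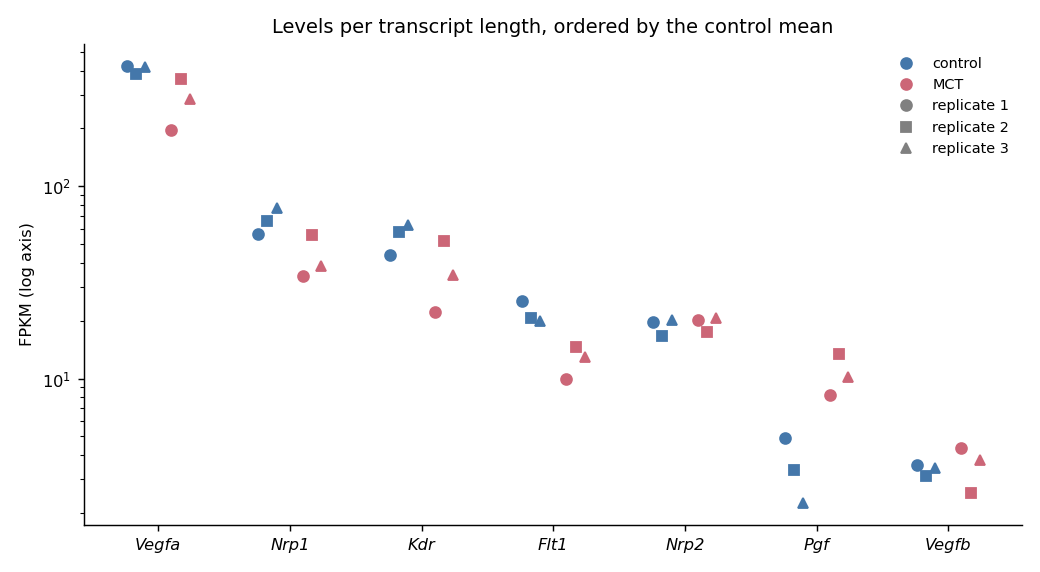
FPKM of each gene (vertical log axis) in control and MCT samples, ordered by the control mean. Vegfa lies above all other members in each sample. In MCT samples the range of Pgf comes to overlap with that of Flt1, although Flt1 is higher within each sample, and Nrp2 stands above Flt1.

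The balance within the family was compared as 5 ratios of FPKM per sample, with a two-sided exact permutation test whose smallest possible p is 0.1. The Pgf to Vegfa ratio was 0.0117, 0.00875 and 0.00542 in controls and 0.0417, 0.0372 and 0.0360 in MCT samples. All MCT samples were above all controls, by 4.65-fold on the mean log scale (exact permutation p = 0.1, adjusted p = 0.5 over the 5 ratios). The Flt1 to Kdr ratio was 0.573, 0.355 and 0.316 in controls and 0.446, 0.279 and 0.372 in MCT samples, and the groups overlapped. Its log2 difference was -0.16 (exact permutation p = 0.7), turning to 0.10 without control replicate 1 and to 0.02 without MCT replicate 2. So a difference between the changes of Flt1 and Kdr was not shown, although only Flt1 passed the test.

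The Nrp2 to Nrp1 ratio was 0.349, 0.250 and 0.259 in controls and 0.590, 0.314 and 0.537 in MCT samples, with MCT replicate 2 among the controls (log2 difference 0.71, exact permutation p = 0.2). The Nrp1 to Kdr ratio lay between 1.14 and 1.28 in controls and between 1.07 and 1.54 in MCT samples (log2 difference 0.01, exact permutation p = 1). Without MCT replicate 1 that difference was -0.16 and without control replicate 2 it was -0.04. The Vegfb to Vegfa ratio lay between 0.00813 and 0.00837 in controls and between 0.00709 and 0.0221 in MCT samples (log2 difference 0.63, exact permutation p = 0.4).

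Each member was also set against 7 endothelial genes in the same library: Cdh5, Pecam1, Tie1, Erg, Egfl7, Esam and Mmrn2. For the ligands this is only a common scale, since other cell types make them too. The mean log2 CPM of that panel was 7.51, 7.50 and 7.42 in controls and 6.89, 7.56 and 7.12 in MCT samples, so MCT replicate 2 was at the control level and MCT replicate 1 lowest, the order also seen for Vegfa, Kdr, Flt1 and Nrp1. The panel itself differed by -0.29 (log2) between groups, with overlap (exact permutation p = 0.4). Relative to the panel, Flt1 was lower in MCT lungs by 0.53 on the log2 scale, and every MCT sample, from -0.88 to -0.63, was below every control, from -0.36 to -0.03. Nrp1 (log2 difference -0.36) and Vegfa (-0.29) also did not overlap between groups, nor did Pgf (1.93). Each of these 4 had an exact permutation p of 0.1, the smallest possible, and an adjusted p of 0.175 over the 7 members. Kdr (-0.37, exact permutation p = 0.3), Nrp2 (0.35, p = 0.3) and Vegfb (0.35, p = 0.5) overlapped.

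**Figure D4:**
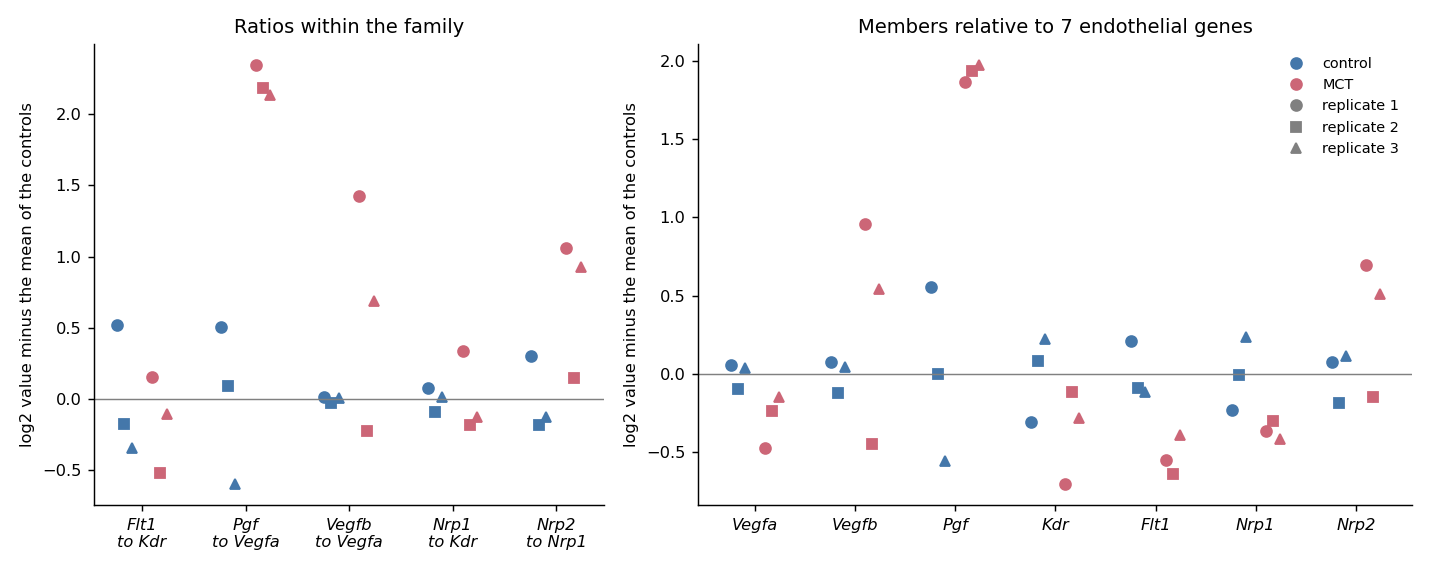
Log2 FPKM ratios within the family (left) and log2 CPM of each member relative to the mean of 7 endothelial genes (right), each minus the mean of its 3 control values. The 3 MCT samples lie together above the controls for Pgf to Vegfa, and for Flt1 and Nrp1 relative to the panel they lie below them.

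These relative values depend on the genes chosen as reference. A wider list of 17 tested endothelium genes fell further than the panel. Its mean log2 CPM was 7.81, 7.79 and 7.73 in controls and 6.91, 7.54 and 7.12 in MCT samples. Against that list the falls of Flt1, Nrp1 and Kdr were therefore smaller than against the panel, and the difference of Vegfa turned positive. Flt1, Nrp1 and Vegfa, which did not overlap between groups against the panel, did overlap against that list. The panel held genes that fell, such as the junction cadherin gene Cdh5 (log2 fold change -0.82, adjusted p = 0.0396, edgeR), and genes near 0, such as Egfl7 (-0.07, adjusted p = 0.807). Cdh5 fell by slightly more than any member, so against Cdh5 alone the differences of Vegfa (0.28), Kdr (0.19), Flt1 (0.04) and Nrp1 (0.20) were positive by construction. The Cdh5 call ended on FPKM with a pseudocount of 0.1 and without any 1 sample other than MCT replicate 2 (adjusted p = 0.0588 to 0.131, edgeR or, for FPKM, limma).

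Marker genes of the vessel and alveolar cell types are given beside these values. Of all tested genes 8.01% were called higher and 5.11% lower. In lists this short, a single call does not stand out from those shares. Of 17 tested endothelium genes 6 fell and 0 rose (median log2 fold change -0.37), and their summed level was 5233 to 5908 CPM in controls and 2960 to 4851 CPM in MCT samples. General capillary genes fell in 6 of 9 (median -1.28), while aerocyte genes, of the Kdr-rich capillary cells at the gas-exchange surface, had 0 lower and 1 higher of 9 (median -0.28). Lymphatic genes rose in 4 of 7 and fell in 1 (median 2.14). Alveolar type 1 genes fell in 3 of 14 (median -0.47). Under other tools, scalings, filters or units or the replicate block 0 to 6 fell. Their summed level was 8340, 7108 and 9227 CPM in control replicates 1 to 3 and 4889, 8505 and 5842 CPM in MCT replicates 1 to 3. The order of the MCT samples was that of Vegfa, but also that of Kdr, Flt1, Nrp1 and the endothelial panel. The order of the controls differed from that of Vegfa. None of these markers was at 0 in any library. Their part in the changes of the 7 genes was not tested. Relative to the lymphatic genes, the log2 difference of Pgf was 0.28 and that of Nrp2 was -1.29, an alternative chosen after seeing the data.

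Other lists, each given as higher and lower calls among tested genes, were alveolar type 2 (0 and 4 of 11), smooth muscle and pericyte (5 and 0 of 12), fibroblast (3 and 3 of 12), macrophage (12 and 0 of 13), mast cell (8 and 0 of 8), neutrophil (0 and 0 of 7), T and NK cell (0 and 5 of 11), B and plasma cell (2 and 3 of 7), arterial and venous endothelium (1 and 3 of 10), ciliated and club epithelium (0 and 0 of 8) and mesothelium (0 and 4 of 6). These counts too stand beside 8.01% of all tested genes higher and 5.11% lower. Alveolar type 2 genes summed to 27431 to 29501 CPM in controls and to 16033, 21959 and 25830 CPM in MCT replicates 1 to 3, with no overlap between groups. Macrophage genes, which include cells able to make VEGF ligands, summed to 768 to 858 CPM in controls and 2147 to 3882 CPM in MCT samples.

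The lymphatic arm of the family, which acts through VEGFR3, rose in part. Flt4, the VEGFR3 gene, stood at 22.6, 25.7 and 27.0 CPM in controls and at 41.9, 44.3 and 39.9 CPM in MCT samples (log2 fold change 0.74, adjusted p = 0.00898, edgeR). That call held in all 15 alternatives. Vegfd stood at 23.1, 7.30 and 9.54 CPM in controls and at 57.8, 37.6 and 31.4 CPM in MCT samples (1.67, adjusted p = 0.0336, edgeR). Removing control replicate 2, control replicate 3, MCT replicate 1 or MCT replicate 3, or using FPKM with a pseudocount of 0.1, ended that call (adjusted p = 0.0521 to 0.121). With 1 sample left out the Vegfd value ran from 1.38 to 2.32, the latter without control replicate 1. Vegfc was at 0.39, short of the threshold (edgeR adjusted p = 0.136). All 3 genes had no overlap between groups, with MCT samples above, as had 18.4% of all tested genes.

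The counts for the pathway lists stand beside 8.01% of all tested genes higher and 5.11% lower. Of 42 tested genes of VEGF receptor signalling, downstream of the receptors, 3 rose and 0 fell, so the share that rose was near that of all genes, and the median log2 fold change was 0.08. Pla2g4a, a phospholipase gene, went from 15.2, 12.4 and 14.5 CPM in controls up to 36.8, 20.5 and 27.2 CPM in MCT samples (SE of the log2 change 0.22, adjusted p = 0.0214, edgeR). The other risers were the sphingosine kinase gene Sphk1 (1.21, adjusted p = 0.0222) and the prostaglandin synthase gene Ptgs2 (1.18, adjusted p = 0.0312). Plcg1, the phospholipase that binds activated VEGFR2, had -0.24 (adjusted p = 0.465). Removing control replicate 2, control replicate 3 or MCT replicate 1 ended all 3 calls. Those of Pla2g4a and Ptgs2 were also lost without MCT replicate 3 and on 1 FPKM scale each, and that of Ptgs2 without control replicate 1 and with the replicate block (adjusted p = 0.0508 to 0.109 over these).

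Among receptor partners and brakes 4 of 22 tested genes rose and 3 fell (median 0.13). The genes that fell were Efnb2, whose product ephrin-B2 takes part in VEGF receptor internalization (-1.93, adjusted p = 0.000593, edgeR), Ptprb, the endothelial phosphatase VE-PTP (-1.53, adjusted p = 0.00255), and Cdh5. Efnb2 stood at 265 to 338 CPM in controls and at 73.7 to 90.8 CPM in MCT samples, and neither its call nor that of Ptprb was lost in any of 15 alternatives. The adaptor gene Shc1 rose by 0.74 on the log2 scale, which was no longer called when control replicate 3 was removed (edgeR adjusted p = 0.0506). The other risers, outside the rule for named genes, were Ptpn6 (0.58), Gipc1 (0.69), whose product binds the neuropilin-1 tail, and Dab2 (0.54). Removing control replicate 3 ended these 3 calls. That of Dab2 was also lost without control replicate 2, MCT replicate 1 or MCT replicate 3, that of Gipc1 without control replicate 1 or 2, and both on FPKM with a pseudocount of 0.1 (adjusted p = 0.051 to 0.0748 over these).

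Genes that VEGF-A induces in cultured endothelium did not move one way. Of 19 tested, 6 rose and 2 fell (median 0.13). Dll4, the Notch ligand of tip cells, stood at 129, 143 and 161 CPM in controls and at 61.0, 31.2 and 38.0 CPM in MCT samples (-1.74, adjusted p = 0.00372, edgeR). Esm1, a secreted tip-cell proteoglycan and the other gene that fell, lies outside the rule for named genes and was chosen after its values were seen. It stood at 22.8, 14.0 and 31.7 CPM in controls and at 5.56, 2.31 and 6.44 CPM in MCT samples (-2.27, adjusted p = 0.0107, edgeR). Rcan1, the calcineurin inhibitor gene induced through NFAT, rose instead, from 42.8, 38.7 and 38.5 CPM to 122, 72.3 and 102 CPM (1.31, adjusted p = 0.00445, edgeR). Vcam1 rose by 1.42 (adjusted p = 0.00183, edgeR), and Icam1, which had the highest CPM of the list averaged over all samples, had 0.13 (adjusted p = 0.656). The other 4 genes that rose, also outside the rule, were Apln (0.86, adjusted p = 0.0249, edgeR) and Nid2 (1.05, adjusted p = 0.0173), both known from tip cells, Plaur (1.08, adjusted p = 0.0162) and Mmp14 (0.97, adjusted p = 0.0252). Each of these 4 calls was lost without control replicate 2. Beyond that, removing control replicate 1 ended those of Apln and Mmp14, control replicate 3 those of Nid2, Plaur and Mmp14, MCT replicate 3 those of Apln, Plaur and Mmp14, and MCT replicate 1 that of Mmp14. On FPKM with a pseudocount of 0.1 Apln and Mmp14 were not called, nor was Mmp14 with the replicate block (adjusted p = 0.0523 to 0.0936 over these). The calls of Dll4, Esm1, Rcan1 and Vcam1 held in all 15 alternatives.

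Upstream, among genes of hypoxia-inducible factor control and its targets, 2 of 21 tested rose and 2 fell (median -0.03). Epas1, the HIF-2 alpha gene of endothelium, fell. Its controls gave 3248, 3530 and 2963 CPM and its MCT samples 1138, 1824 and 1633 CPM (-1.08, adjusted p = 0.0137, edgeR), with no call once control replicate 2 was removed (edgeR adjusted p = 0.0531). The adrenomedullin gene Adm (1.23, adjusted p = 0.0226, edgeR) and the glycolysis gene Pgk1 (0.71, adjusted p = 0.0307) rose. Removing control replicate 2, control replicate 3, MCT replicate 1 or MCT replicate 3 ended both calls, and FPKM with a pseudocount of 0.1 that of Pgk1 (adjusted p = 0.0573 to 0.102). Kdm3a, outside the rule, fell by 0.40 (adjusted p = 0.0424, edgeR), a call that ended in each removal of 1 sample other than MCT replicate 2, with the replicate block, with no filter and on both FPKM scales (adjusted p = 0.0554 to 0.147).

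Matrix and heparan sulfate genes, whose products can bind or release VEGF, rose in 8 of 20 and fell in 1 (median 0.47). Fn1, the gene of fibronectin, was at 534 to 652 CPM in controls and 2451 to 3802 CPM in MCT samples (2.39, adjusted p = 0.000757, edgeR). Ccn1, listed under its older symbol Cyr61, rose by 1.57 (adjusted p = 0.00159, edgeR) and Mmp2 by 1.33 (adjusted p = 0.00267), and these 3 calls held in all 15 alternatives. Hpse, the heparanase gene outside the rule, fell by 1.01 (adjusted p = 0.0424, edgeR). Its call was lost on FPKM with a pseudocount of 0.1 and in every removal of 1 sample except that of control replicate 1 (adjusted p = 0.0501 to 0.14).

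**Figure D5:**
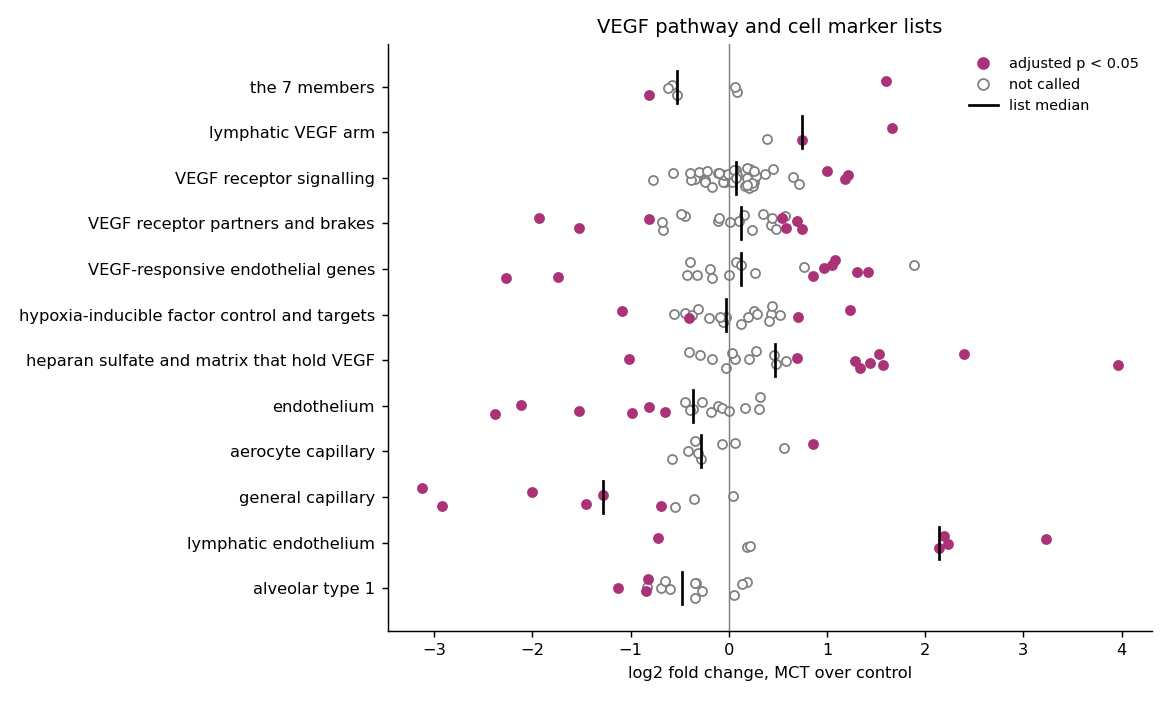
Log2 fold change of MCT over control (horizontal axis) for each tested gene of the VEGF pathway lists and of vessel and alveolar type 1 markers, with called genes filled and list medians as bars. The 7 members spread from -0.81 to 1.60, general capillary genes have a median of -1.28 and lymphatic genes one of 2.14.

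The genes most like each member were sought among 11154 tested genes with a symbol and a mean of at least 5 CPM. The measure was the root mean square difference over the 6 samples of log2 CPM, each taken from its own control mean, so smaller is closer. Pgf had the least close neighbours, Scn3b at 0.195 and Racgap1 at 0.253. Flt1 was nearest to Acss1 (0.0837) and Add3 (0.0866), and Kdr to Pcdha4 (0.0975) and Sh3tc2 (0.108). Vegfa was nearest to Eps8l2 (0.0540) and Gstm7 (0.0755), and Nrp1 to Fat4 (0.0534) and Hoxa3 (0.0672). For Vegfb these were Ncoa7 (0.0574) and Rgag4 (0.0632), and for Nrp2 they were Mnat1 (0.0339) and Kdelc1 (0.0380).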

How the data were processed

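The authors deposited an estimated count and an FPKM value per gene and sample, per the file headers. Bowtie2, TopHat2 2.0.3.12 and the build Rnor_6.0 are listed in the submitters' processing notes. For the counting tool and the annotation release, the sources used here give nothing. Between 90.7% and 91.5% of non-zero estimated counts were whole (within 0.001), and all were rounded. Genes were kept by filterByExpr (minimum count 10, total 15). The test was edgeR 4.0.16 (R 4.3.3), quasi-likelihood, TMM, all 6 samples and no covariates, with calls at 0.05 after Benjamini-Hochberg adjustment; this test had been planned for raw counts. Intervals of log2 fold changes use the fit's standard error and its t distribution. Log CPM for relative levels used a prior count of 0.5.

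Alternatives were DESeq2 1.42.0, limma-voom and limma (3.58.1) on log2(FPKM + 1) and log2(FPKM + 0.1), other scalings and filters, a replicate block and leaving out each sample. Within groups, chi-square values of sample pairs were 22.1 to 49.7 times their degrees of freedom, and no samples were merged. Since nothing says that samples are separate animals, p-values reflect only sample-to-sample spread, part of which may be technical.

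The members, the 23 other lists (290 symbols, 286 found, 282 tested, some by RefSeq synonyms) and the tests were chosen with earlier results of these data known. Named were the members, up to 3 called genes with the smallest p and the most abundant gene of each pathway list, the endothelial panel, and 2 nearest genes per member. Robo4 of the planned panel had no match in the table. Pecam1 was read from an assembled-transcript locus. Genome positions of the genes on Rnor_6.0 are not given here.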

Additional observations from a re-analysis of the deposited data

How the results depend on the processing

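With 1 sample left out, log2 fold changes ran from -0.76 to -0.32 for Vegfa, -0.070 to 0.28 for Vegfb, 1.34 to 1.95 for Pgf, -0.95 to -0.32 for Kdr, -0.94 to -0.66 for Flt1, -0.87 to -0.47 for Nrp1 and -0.013 to 0.12 for Nrp2. The number of members called higher was then 0 to 1 and called lower 0 to 4, the 4 without MCT replicate 2. With DESeq2, 2 members were lower, as Nrp1 was called at -0.62 (adjusted p = 0.0238). No other tool, scaling, filter or unit moved a member across the threshold. Of the genes in the other lists 102 were called, 60 to 112 with 1 sample left out and 72 to 115 otherwise. Over all genes, 1221 were higher and 779 lower, but 481 and 212 without control replicate 3 and 562 and 273 without control replicate 2. With 1 sample left out, Pecam1 ran from -0.25 (without MCT replicate 2) to 0.44 and Egfl7 from -0.20 to 0.040 (without MCT replicate 1).

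The ratio of Flt1 to Kdr ran from -0.33 to 0.10 and that of Nrp1 to Kdr from -0.16 to 0.11 with 1 sample left out. Against Cdh5 alone the relative levels of Vegfa (0.28), Kdr (0.19), Flt1 (0.036) and Nrp1 (0.20) changed sign, since Cdh5 itself fell by more than each of them. So did Vegfa against the whole endothelium list (0.013) and Nrp2 against lymphatic genes (-1.29). These last changes of sign also follow from the reference. The mean log2 CPM of the lymphatic genes rose from 4.62, 4.57 and 4.55 in controls to 5.94, 5.90 and 5.96 in MCT samples. That of the endothelium list fell, as given above. Why these lists moved was not tested.

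Replicate numbers are shared between groups by title alone. Same-numbered samples had correlations of deviations of -0.06, -0.07 and -0.07, and 0 of 6 samples correlated best with their own number. With the replicate block Pgf stood at 1.64 (adjusted p = 0.0301, edgeR) and Flt1 at -0.81 (adjusted p = 0.0485), no member changed its call, and 917 genes were higher and 546 lower. For Vegfb, on 75 to 114 counts per sample, the 95% interval of -0.48 to 0.66 leaves room for an undetected change in either direction.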
